A study of Mus musculus with 4 samples.

Results

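The genes described here belong to families of carriers that move organic ions, peptides, nucleosides and water-soluble vitamins across cell membranes. Slco6b1 is a pseudogene, and some members, such as Slc22a23, have no settled substrate. The genes were taken by symbol: all Slco genes except Slco1c1, and the Slc15, Slc19, Slc22, Slc23, Slc28, Slc29, Slc46, Slc47 and Slc52 families. The rule found 65 genes of the 46072 in the table, with 64 distinct symbols, because Slc22a12 is listed under 2 identifiers. RNA was sequenced after poly(A) selection in 4 libraries, replicates 1 to 4, of mouse brain vasculature with the genotype given as WT, and no treatment, age, sex or strain is named. The cells are labelled as endothelial and were cut out by laser capture, a method in which a laser isolates chosen cells from a tissue section, and the series title adds perfusion fixation and immunolabelling. All 4 libraries form 1 group, so genes were compared with a fixed level or with other genes of the same library, and since the labels name no separate animals, the p-values cover the spread of these 4 libraries alone, and that spread may be technical.

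These carriers belong to the solute carrier superfamily. At the blood-brain barrier, the endothelium uses them together with efflux pumps to choose which hormones, drugs and nutrients enter the brain, and the choroid plexus epithelium uses an overlapping set between blood and cerebrospinal fluid. Slco genes encode organic anion transporting polypeptides, Slc22 genes organic anion, cation and carnitine transporters, Slc47 genes proton-coupled organic cation exporters, and Slc15 genes peptide and histidine transporters. Slc29 and Slc28 encode equilibrative and concentrative nucleoside transporters, Slc19 and Slc46 folate and thiamine carriers and their relatives, Slc52 riboflavin transporters, and Slc23 sodium-dependent vitamin C transporters.

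Values are the authors' FPKM, a fragment count corrected for how long the transcript is and how many fragments the library mapped. Levels of different genes can therefore be set side by side. Summed FPKM ranged from 448678 to 482882 per library, and since the table holds no counts, no counting interval is given. The labelled cell type was checked against its markers: all 17 endothelial markers were above 0, and their median was 4.29 ± 0.541 FPKM (SD, n = 4). Their means ranged from 0.368 FPKM for Erg to 68.2 for Ly6c1. A list median depends on the genes chosen, so these medians do not measure how much RNA each cell type gave. Several other list medians were higher, at 24.3 ± 5.40 FPKM for 12 choroid plexus genes, 69.7 ± 4.98 for 8 astrocyte genes, 117 ± 1.33 for 8 neuronal genes and 20.5 ± 2.72 for 9 microglial genes. The median of 7 oligodendrocyte genes was 172 to 236 FPKM over the libraries. Medians were 5.70 ± 0.852 FPKM for 9 leptomeningeal and fibroblast genes, 2.78 ± 0.356 for 9 pericyte genes and 24.8 ± 3.37 for 5 smooth muscle genes, and no marker of any list was at 0 in all 4 libraries. In such bulk samples fewer cells of a type and less RNA per cell cannot be told apart, and which cells a transporter's RNA came from was not tested.

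Of the 65 genes, 50 were above 0 in any library, 36 were above 0 in all 4, and 22 were at 1 FPKM or more in all 4. The share listed at 0 in every library was 23.1% of the members and 45.3% of all genes in the table, and the share averaging 1 FPKM or more was 40% of the members and 29.6% of all genes. Tested against 1 FPKM, 22 of the 50 lay above it and 20 below it, and 8 could not be placed (limma, 2-sided, p-values adjusted across the 25206 genes above 0 in any library, threshold 0.05). Among all genes tested, 47.7% lay above and 40.1% below 1 FPKM, so the members' 44% and 40% were near the background. The median difference from 1 FPKM on the log2(FPKM + 1) scale was -0.018 over the members and 0.27 over all genes tested.

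**Figure D1:**
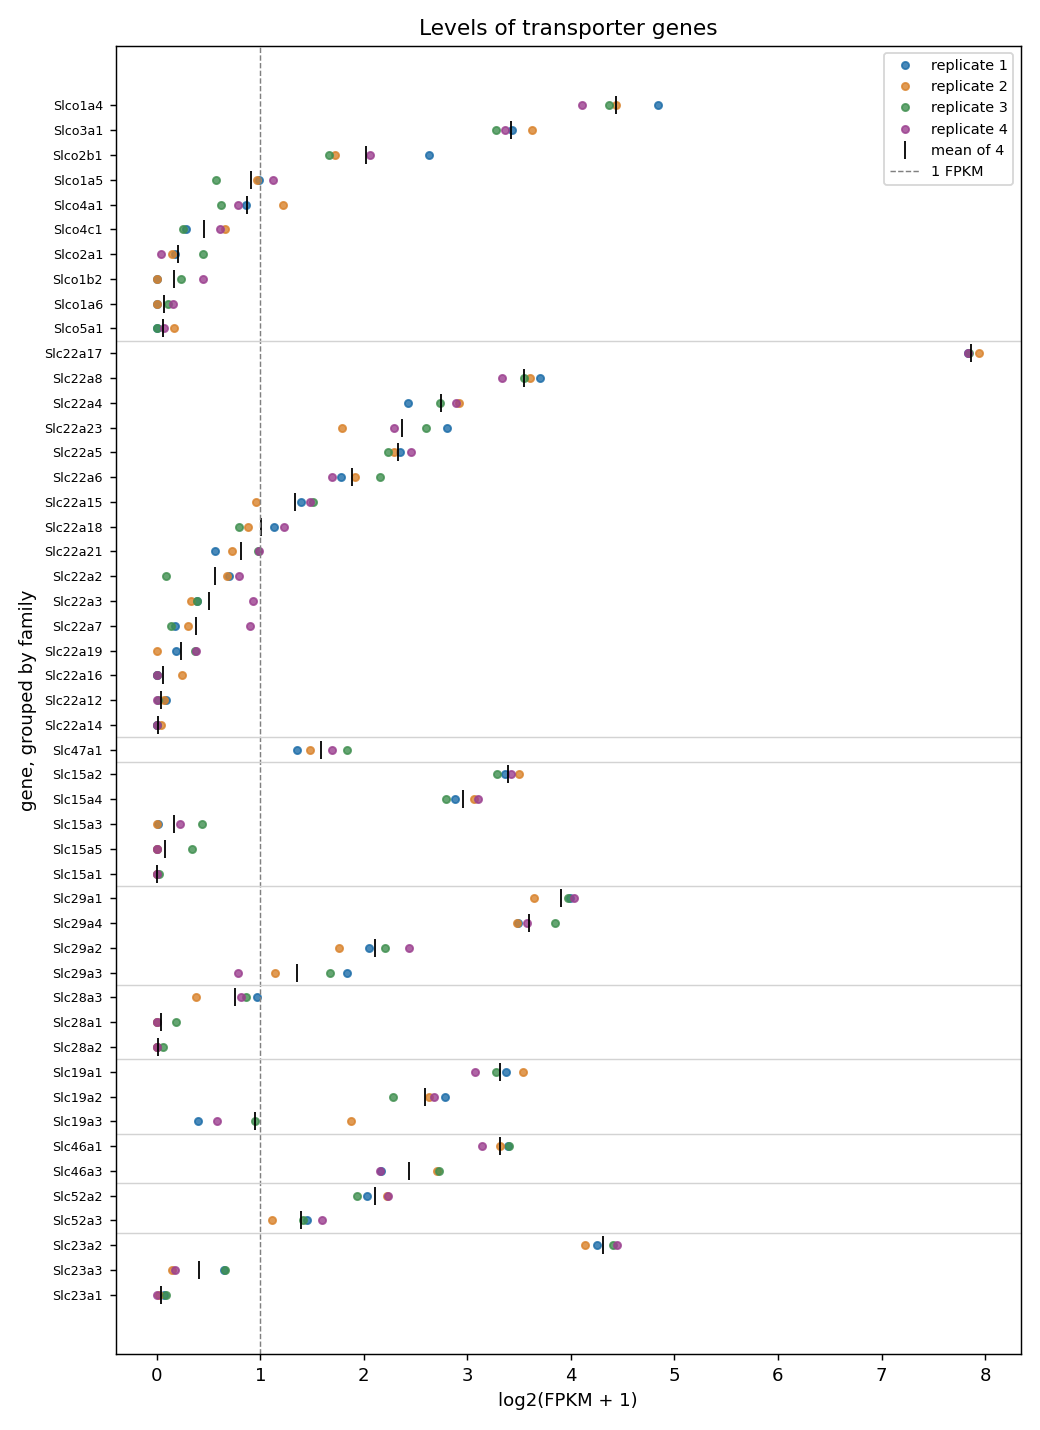
Levels of transporter genes above 0 in any library, as log2(FPKM + 1), grouped by family, with 1 point per library, a bar for the mean of 4 and a dashed line at 1 FPKM. Slc22a17 stands alone at the right with a mean of 232 FPKM, the highest other gene is Slco1a4 at 21.0 FPKM, and the Slc28 genes all have means under 1 FPKM.

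The number of CpG dinucleotides at the promoter varied widely among the carriers. Promoter windows of 300 bases from RefSeq (GRCm38.p6), 250 before and 50 after a start listed there, were found for 54 of the 64 symbols. The first window listed was taken for the 7 symbols with several. Some windows lie inside the gene as placed by GENCODE M21, such as those of Slc15a4, Slc29a4, Slco2a1 and Slc22a8. The Slc22a8 window begins at 8592932 and the gene at 8591254. For such genes the CpG count describes an internal start. The motif searched was CG, which reads the same on both strands. Of 22 matched members averaging 1 FPKM or more, 16 had 10 or more CpG, or 72.7%, compared with 82.5% of 9808 genes at that level. Of 18 members above 0 but under 1 FPKM, 4 had 10 or more, and of 14 members at 0, 1 did. The corresponding shares of all genes were 41.4% and 7.87%.

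The 6 members of at least 1 FPKM with under 10 CpG were Slco1a4 and Slc22a8 with 1 each, Slc22a6 and Slc22a18 with 2 each, and Slc15a2 and Slco2b1 with 5 each. Slc29a1 and Slc22a17 had 16 and 13. Windows of these 2 and of Slco1a4 and Slc22a8 are shown, together with Slc22a28, a gene at 0 FPKM with 1 CpG. Each is written 5′ to 3′ with every CpG in capitals.
Slco1a4 (chr6:141856171-141856470, minus strand): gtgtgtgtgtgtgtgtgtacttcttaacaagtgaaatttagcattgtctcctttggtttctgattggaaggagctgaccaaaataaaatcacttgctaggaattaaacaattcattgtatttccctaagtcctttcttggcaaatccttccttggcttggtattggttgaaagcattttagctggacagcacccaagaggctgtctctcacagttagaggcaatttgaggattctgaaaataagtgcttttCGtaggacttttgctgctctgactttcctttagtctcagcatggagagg
Slc22a8 (chr19:8592932-8593231, plus strand): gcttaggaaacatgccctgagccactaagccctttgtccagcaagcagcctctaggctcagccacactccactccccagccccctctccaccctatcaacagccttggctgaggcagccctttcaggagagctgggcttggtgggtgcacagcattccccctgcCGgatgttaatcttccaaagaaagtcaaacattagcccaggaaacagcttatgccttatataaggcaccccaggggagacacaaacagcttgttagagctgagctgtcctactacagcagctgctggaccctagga
Slc22a17 (chr14:54913083-54913382, minus strand): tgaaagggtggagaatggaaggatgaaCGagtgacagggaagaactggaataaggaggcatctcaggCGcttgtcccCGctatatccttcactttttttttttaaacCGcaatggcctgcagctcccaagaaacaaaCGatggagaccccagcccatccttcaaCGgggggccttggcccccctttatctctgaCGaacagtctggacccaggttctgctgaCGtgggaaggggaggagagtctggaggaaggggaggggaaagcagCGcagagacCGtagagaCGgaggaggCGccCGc
Slc29a1 (chr17:45599569-45599868, minus strand): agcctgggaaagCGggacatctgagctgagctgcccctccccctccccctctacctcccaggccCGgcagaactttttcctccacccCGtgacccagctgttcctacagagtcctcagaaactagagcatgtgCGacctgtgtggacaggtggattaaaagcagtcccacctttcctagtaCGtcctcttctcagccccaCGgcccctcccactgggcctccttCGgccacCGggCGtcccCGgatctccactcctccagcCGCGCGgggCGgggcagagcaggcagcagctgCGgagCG
Slc22a28 (chr19:8131933-8132232, minus strand): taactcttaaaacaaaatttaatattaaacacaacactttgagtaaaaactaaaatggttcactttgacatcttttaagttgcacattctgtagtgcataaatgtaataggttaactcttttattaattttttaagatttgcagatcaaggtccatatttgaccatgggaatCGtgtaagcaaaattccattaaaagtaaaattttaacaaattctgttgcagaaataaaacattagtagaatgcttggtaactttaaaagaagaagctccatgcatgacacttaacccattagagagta
The Slco1a4 and Slc22a28 windows thus hold the same number of CpG, while their mean levels were 21.0 and 0 FPKM. These counts describe the windows and were not tested. The value of Slc22a28 is uncertain, since 53.9% of the 50-base windows in its transcripts also occur in transcripts of other genes.

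**Figure D2:**
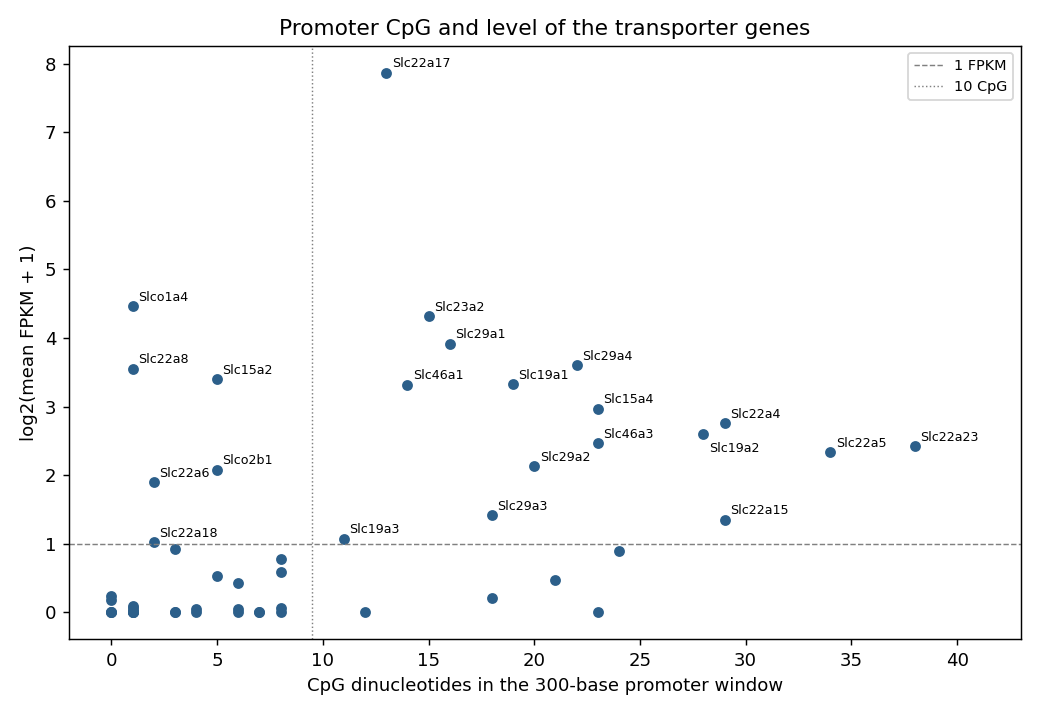
CpG dinucleotides in the 300-base promoter window (x axis) and log2(mean FPKM + 1) (y axis) of the 54 matched transporter genes, named where the mean is at least 1 FPKM. Slco1a4 and Slc22a8 lie at the upper left with 1 CpG each, and Slc22a17 lies at the top with 13.

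Among the organic anion transporting polypeptides, 3 of 14 genes lay above 1 FPKM and 5 below it, compared with 47.7% and 40.1% of all genes tested. Another 2 could not be placed, and 4 were listed at 0 in every library. The highest was Slco1a4, a carrier of bile salts, steroid conjugates and drugs that is best known from rodent brain capillaries (chromosome 6, 141805440 to 141856199, GRCm38). Its FPKM was 27.6, 20.6, 19.6 and 16.2 in replicates 1 to 4, a mean of 21.0 ± 4.78 (SD, n = 4), which exceeded 1 FPKM by 3.44 ± 0.12 (SE) in log2(FPKM + 1) (limma, adjusted p = 3.61e-06). Replicate 1 was the highest and replicate 4 the lowest, and every library was far above 1 FPKM.

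Slco3a1, a widely used member that carries prostaglandins and thyroid hormone, measured 9.77, 11.4, 8.72 and 9.29 FPKM, and its libraries overlapped none of those of Slco1a4. Slco2b1, a carrier of steroid sulfates found in endothelium and microglia, measured 5.21, 2.30, 2.17 and 3.18 FPKM, with replicate 1 above the others. Its difference from 1 FPKM was 1.02 ± 0.20 (SE) on the log2(FPKM + 1) scale (limma, adjusted p = 0.00448). Slco1a5, best known from the choroid plexus, measured 0.977, 0.959, 0.488 and 1.17 FPKM, and Slco4a1, a thyroid hormone carrier, measured 0.813, 1.33, 0.538 and 0.721, and neither could be told from 1 FPKM (limma, adjusted p = 0.522 and 0.374). These were the members nearest to 1 FPKM from below, and Slc22a18 and Slc19a3, with means of 1.03 and 1.11 FPKM, were the nearest from above.

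Slco2a1, the prostaglandin transporter, was low at 0.133, 0.108, 0.365 and 0.0297 FPKM, and lay below 1 FPKM (limma, adjusted p = 0.000184). Slco4c1, a kidney carrier, had a mean of 0.380 FPKM, below 1 FPKM (limma, adjusted p = 0.00281) but not with FPKM rescaled to a fixed sum (adjusted p = 0.355), and Slco1b2, the main liver form, Slco1a6 and Slco5a1 had means of 0.135, 0.0480 and 0.0433 FPKM. Slco1a1, a liver and kidney form, and the testis genes Slco6b1, Slco6c1 and Slco6d1 were listed at 0 in all 4 libraries. Slco6b1 is annotated as a pseudogene (GENCODE M21).

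The Slco1 genes lie side by side within 799 kb of chromosome 6, and adjacent genes differed widely. Slco1c1, the thyroid hormone carrier that the rule leaves out, lies at one end and measured 27.5 ± 2.95 FPKM (SD, n = 4). Slco1a4 was -0.39 ± 0.23 (SD) from it on the log2(FPKM + 1) scale, lower in 4 of 4 libraries, a call (limma, adjusted p = 0.00253) that was lost without replicate 4 (-0.28, adjusted p = 0.103). Between them lies Slco1b2 at 0.135 FPKM, and beyond Slco1a4 lie Slco1a1 at 0, Slco1a6 at 0.0480 and Slco1a5 at 0.899 FPKM. The FPKM ratio of Slco1a4 to Slco1a5 was 13.8 to 40.1 over the libraries. The 2 genes share little sequence at read scale: 1.61% of the 50-base windows in Slco1a4 transcripts (GENCODE M21) occur in transcripts of another gene, mostly of Slco1a5.

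The Slc22 family had the most members and by far the highest one. Of 26 listed, 6 lay above 1 FPKM and 8 lay below, compared with 47.7% and 40.1% of all genes tested. Another 3 could not be placed and 9 were at 0 in every library. Slc22a17, a brain-type relative of the organic cation transporters that is also known as a receptor for lipocalin 2 (chromosome 14, 54906304 to 54913132, GRCm38), measured 227, 245, 228 and 227 FPKM, a mean of 232 ± 8.95 (SD, n = 4). It ranked 263 of the 25206 genes above 0 and held 57.4% ± 1.45 of the summed FPKM of all 65 members. The difference from Slco1a4, the member with the closest mean, was 3.43 ± 0.31 (SD) in log2(FPKM + 1), the same way in 4 of 4 libraries. Of its 50-base windows 0.746% occur in transcripts of other genes.

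The organic anion transporters of the family followed. Slc22a8, which works in brain endothelium, choroid plexus and kidney (chromosome 19, 8591254 to 8611835), measured 11.97, 11.2, 10.7 and 9.08 FPKM, and exceeded 1 FPKM by 2.55 ± 0.079 (SE) in log2(FPKM + 1) (limma, adjusted p = 1.92e-06). Its neighbour Slc22a6, the related anion exchanger of kidney, measured 2.44, 2.77, 3.46 and 2.24 FPKM, also above 1 FPKM (limma, adjusted p = 0.00126). The FPKM ratio of Slc22a8 to Slc22a6 was 3.10 to 4.90 over the libraries. Both lie at one end of a group of 8 Slc22 genes within 955 kb, and the other 6 were at or near 0: Slc22a19 had a mean of 0.182 FPKM, and Slc22a26, Slc22a27, Slc22a28, Slc22a29 and Slc22a30 were listed at 0 in every library. Sequence sharing limits the values of Slc22a27, Slc22a28, Slc22a29 and Slc22a30. Of the 50-base windows in their transcripts 29.9%, 53.9%, 28.65% and 34.2% occur in transcripts of other genes. The share was 6.21% for Slc22a26 and 0.457% for Slc22a8.

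The carnitine and zwitterion carriers were measured at moderate level. Slc22a4, the ergothioneine transporter, measured 4.38, 6.58, 5.66 and 6.40 FPKM, and Slc22a5, the main cellular carnitine transporter, 4.09, 3.89, 3.69 and 4.48. Slc22a4 was 0.41 ± 0.24 (SD) higher than Slc22a5 in log2(FPKM + 1), and so in 4 of 4 libraries. Slc22a21, another carnitine transporter gene that lies between them on chromosome 11, measured 0.478, 0.659, 0.970 and 0.989 FPKM, not distinguishable from 1 FPKM (limma, adjusted p = 0.168). The values of Slc22a5 and Slc22a21 are uncertain relative to each other, since 26.3% and 22.04% of their 50-base windows occur in transcripts of other genes, nearly all in each other's.

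**Figure D3:**
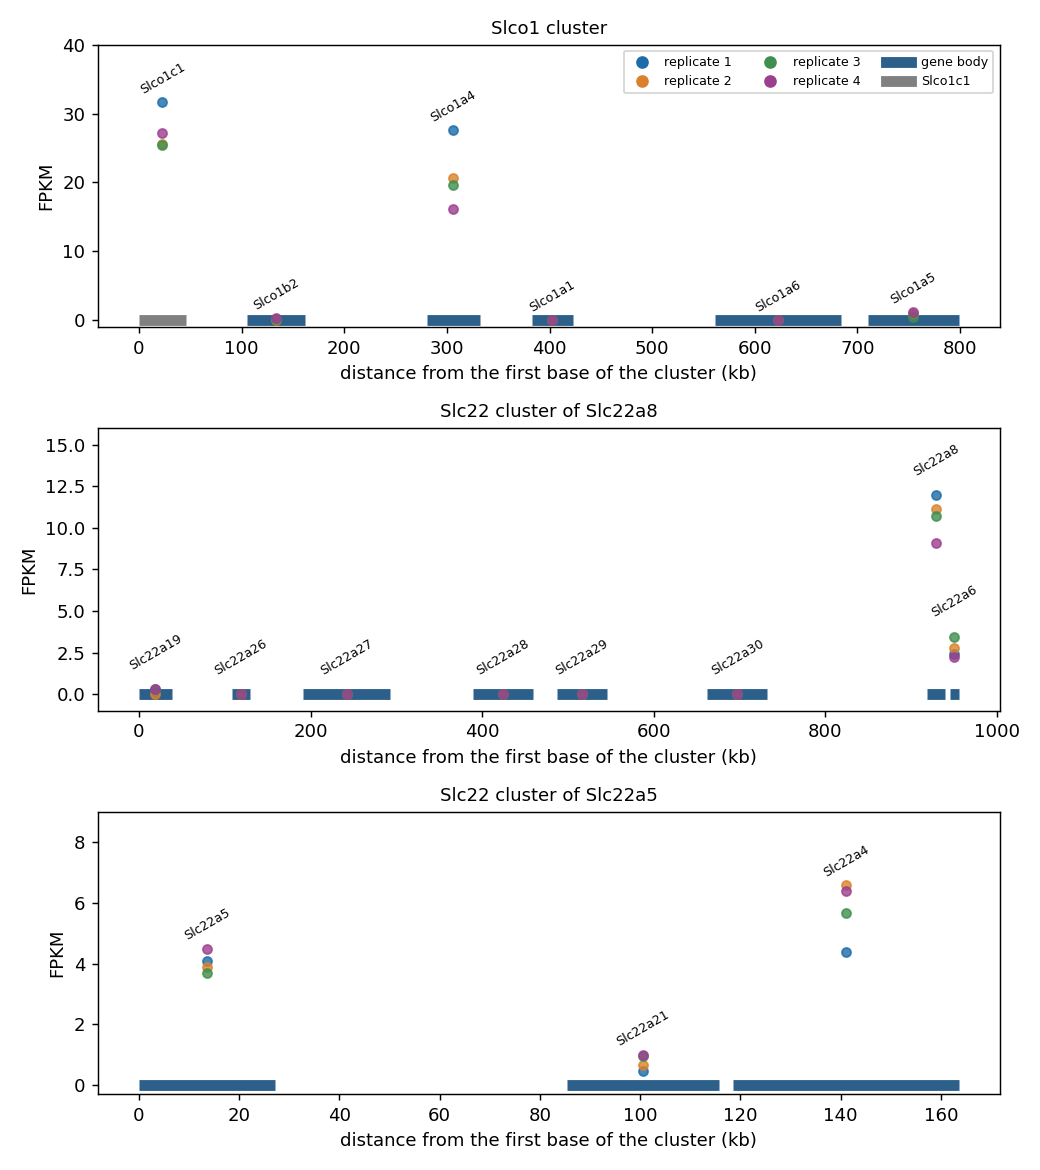
FPKM of neighbouring genes in 3 clusters, against distance in kb from the first base of each cluster, with 1 point per library at the middle of each gene body (bar) and Slco1c1 in grey. Slco1a4 at 21.0 FPKM lies between Slco1b2 and Slco1a1, at 0.135 and 0 FPKM, and Slc22a8 and Slc22a6 are the measured genes of the chromosome 19 cluster at 10.7 and 2.73 FPKM.

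Slc22a23, a relative without a settled substrate, measured 5.999, 2.46, 5.06 and 3.88 FPKM, with replicate 2 the lowest. Slc22a15, a brain carrier of zwitterions, and Slc22a18, an imprinted gene, had means of 1.55 and 1.03 FPKM, neither distinguishable from 1 FPKM (limma, adjusted p = 0.0727 and 0.931), though Slc22a15 passed as above it without replicate 2 (adjusted p = 0.0257). The polyspecific organic cation transporters Slc22a2 and Slc22a3, which lie next to each other on chromosome 17, were low. Slc22a2 measured 0.618, 0.599, 0.0668 and 0.735 FPKM, with replicate 3 far below the others, and Slc22a3, a low-affinity monoamine carrier, measured 0.312, 0.255, 0.309 and 0.899, with replicate 4 above them. Both lay below 1 FPKM (limma, adjusted p = 0.0273 and 0.0113), but the call was lost for Slc22a2 without replicate 1, 2 or 4 (adjusted p = 0.0814, 0.0798 and 0.0551) and for Slc22a3 without replicate 1, 2 or 3 (adjusted p = 0.07, 0.0647 and 0.0692).

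Further members of the family were low. Slc22a7, a liver and kidney anion carrier, measured 0.127, 0.231, 0.101 and 0.869 FPKM and lay below 1 FPKM (limma, adjusted p = 0.00926), a call lost without replicate 1, 2 or 3 (adjusted p = 0.0671, 0.0607 and 0.0649). Slc22a12, the urate exchanger of kidney, had a mean of 0.0303 FPKM under one identifier and was listed at 0 under the other, and 30.1% of its exon bases overlap those of the neuronal gene Nrxn2 (6.28 FPKM) on the opposite strand, with the same limit as to strand. The testis genes Slc22a14 and Slc22a16 had means of 0.00747 and 0.0456 FPKM. Slc22a13, a kidney anion carrier of which 36.0% of the 50-base windows also occur in a pseudogene, Slc22a20 and Slc22a22 were listed at 0 in all 4 libraries.

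Of the 2 Slc47 genes, Slc47a1, an exporter of organic cations, measured 1.56, 1.79, 2.57 and 2.23 FPKM, above 1 FPKM in 4 of 4 libraries (limma, adjusted p = 0.00855). Slc47a2, which lies next to it on chromosome 11, was listed at 0 in every library.

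Among the peptide and histidine transporters, Slc15a2 and Slc15a4 were measured and Slc15a1, Slc15a3 and Slc15a5 lay below 1 FPKM. Slc15a2, the high-affinity peptide transporter of choroid plexus and astrocytes (chromosome 16, 36750177 to 36784962), measured 9.32, 10.3, 8.76 and 9.73 FPKM, and Slc15a4, a histidine and peptide carrier of lysosomes, 6.36, 7.39, 5.94 and 7.58. Slc15a2 was 0.43 ± 0.079 (SD) higher in log2(FPKM + 1), and so in 4 of 4 libraries. Slc15a1, the intestinal peptide transporter, was at 0.0122 FPKM in replicate 3 and at 0 in the others. Slc15a3, a relative of lysosomes in immune cells, had a mean of 0.133 FPKM, and 28.1% of its exon bases overlap Tmem132a on the opposite strand, and with no strand setting stated, reads of that gene (11.7 FPKM) and of Slc15a3 cannot be told apart.

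Of the 4 equilibrative nucleoside transporters 3 lay above 1 FPKM and none below, and of the 3 concentrative ones none lay above and 2 below. Over all genes tested the shares were 47.7% above and 40.1% below, and these small families were not tested against each other. Slc29a1, the main adenosine and nucleoside carrier of the cell surface (chromosome 17, 45585200 to 45599606), measured 14.9, 11.5, 14.6 and 15.3 FPKM, and Slc29a4, which also carries serotonin and dopamine, 10.3, 10.1, 13.4 and 10.9. Slc29a1 was the higher by 0.31 ± 0.19 (SD) in log2(FPKM + 1), and so in 4 of 4 libraries. Slc29a2, a lower-affinity surface form, measured 3.15, 2.38, 3.61 and 4.41 FPKM, and the FPKM ratio of Slc29a1 to it was 3.48 to 4.82. These 3 lay above 1 FPKM (limma, adjusted p = 1.44e-06, 2.2e-06 and 0.000836). Slc29a3, a lysosomal form, measured 2.56, 1.21, 2.18 and 0.724 FPKM, not distinguishable from 1 FPKM (limma, adjusted p = 0.167). Of the sodium-coupled Slc28 genes, Slc28a3 measured 0.956, 0.300, 0.812 and 0.755 FPKM (limma, adjusted p = 0.111), and Slc28a1 and Slc28a2, above 0 in replicate 3 alone, had means of 0.0340 and 0.0110 FPKM. The value of Slc28a2 is uncertain, since 35.4% of its 50-base windows also occur in Gm14085.

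Folate carriers at the surface stood at nearly equal levels. Slc19a1, the reduced folate carrier, measured 9.34, 10.7, 8.67 and 7.42 FPKM, and Slc46a1, the proton-coupled folate transporter that is prominent in choroid plexus, 9.52, 8.96, 9.58 and 7.80. Their difference was 0.0019 ± 0.16 (SD) on the log2(FPKM + 1) scale, with Slc19a1 higher in 1 of 4 libraries, and both lay above 1 FPKM (limma, adjusted p = 5.75e-06 and 2.11e-06). Slc46a3, a lysosomal relative, measured 3.49, 5.53, 5.62 and 3.46 FPKM, with replicates 2 and 3 above the other two. Slc46a2, a thymic relative, was listed at 0 in all 4 libraries.

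The thiamine transporters differed from each other and, for Slc19a3, between libraries. Slc19a2, the widely used form, measured 5.88, 5.18, 3.87 and 5.39 FPKM. Slc19a3, the form whose loss in humans causes a thiamine-responsive brain disease, measured 0.321, 2.68, 0.928 and 0.4996 FPKM, so replicate 2 stood above the other 3 and Slc19a3 could not be told from 1 FPKM (limma, adjusted p = 0.876). Of the 26 members with a mean of at least 1 FPKM, it had the largest spread, an SD of 0.66 in log2(FPKM + 1), at percentile 97.0 among 1979 genes of like level. Replicate 2 also had the lowest summed choroid plexus markers, 11862 against 14492 to 17431 FPKM. Its sums of every other marker list but the leptomeningeal one were the highest. Examples are 106 against 93.9 to 102 FPKM for pericytes and 299 against 233 to 270 for endothelium. List medians followed only in part. In replicate 2 they were highest for smooth muscle, neuronal, oligodendrocyte and microglial genes, but not for endothelial or astrocyte genes. Pericyte, leptomeningeal and choroid plexus medians were lowest there, at 2.44 against 2.59 to 3.25 FPKM for pericytes. The part of these marker differences in the Slc19a3 value was not tested.

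Riboflavin and vitamin C carriers completed the set. Slc52a2, the riboflavin transporter with broad use in brain, measured 3.08, 3.67, 2.83 and 3.71 FPKM, and Slc52a3 1.73, 1.17, 1.67 and 2.02. Both lay above 1 FPKM (limma, adjusted p = 0.000253 and 0.0338), and the call for Slc52a3 was lost without replicate 1, 3 or 4 (adjusted p = 0.1, 0.0931 and 0.109). Slc23a2, the vitamin C transporter of neurons and choroid plexus (chromosome 2, 132052496 to 132145108), was the member with the highest mean but for Slc22a17 and Slco1a4, at 18.1, 16.6, 20.2 and 20.8 FPKM. Slc23a1, the form of kidney and gut, had a mean of 0.0321 FPKM, and Slc23a3 measured 0.571, 0.108, 0.579 and 0.131 FPKM, below 1 FPKM in every library (limma, adjusted p = 0.00524), a call lost with FPKM rescaled to a fixed sum (adjusted p = 0.295).

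The second comparison set the carriers beside endothelial markers of the same library. Of 50 members tested, 12 lay above the pan-endothelial median, 32 lay below it and 6 could not be placed (limma, adjusted as above), compared with 31.5% of all genes above and 60.3% below. The 12 were Slc22a17, Slco1a4, Slc23a2, Slc29a1, Slc29a4, Slc22a8, Slco3a1, Slc15a2, Slc19a1, Slc46a1, Slc15a4 and Slc22a4. All but Slc22a4 were above the median in 4 of 4 libraries. Slc22a4 (0.35, adjusted p = 0.0255) lost its call without replicate 2 or 4 (0.30 and 0.22, adjusted p = 0.0986 and 0.218). With the mean of the list in place of its median, 10 members lay above. There Slc15a4 (0.034, adjusted p = 0.794) and Slc22a4 (-0.18, adjusted p = 0.194) lost their calls. On the log2(FPKM + 1) scale Slco1a4 lay 2.04 ± 0.19 (SD, n = 4) above the endothelial median, Slc29a1 1.51 ± 0.27, Slc22a8 1.15 ± 0.038 and Slc46a1 0.92 ± 0.046. Slc22a8 and Slc46a1 had the smallest such SDs of all members, and how many of all genes had SDs as small was not counted. Both thus kept nearly the same distance from the endothelial median in every library. That median was the value of Tie1 in replicate 1 and of Pecam1 in replicates 2 to 4. Single markers could move otherwise, such as Ramp2 at 22.2, 57.3, 58.2 and 29.4 FPKM.

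The 6 members not placed were Slc19a2, Slc46a3, Slc22a23, Slc22a5, Slc29a2 and Slc52a2, with differences from 0.20 to -0.29. Against the list mean all 6 passed as below (limma, adjusted p = 6.73e-05 for Slc52a2 to 0.0316 for Slc19a2). Slc52a2 also passed as below with the reference held at its mean over the libraries and without a mean-variance trend (adjusted p = 0.0481 and 0.0498). Slc29a2 did so without replicate 4 (-0.47, adjusted p = 0.0407). Slco2b1 was -0.37 ± 0.44 (SD) from the endothelial median, lower in 3 of 4 libraries. Its call (limma, adjusted p = 0.0366) was lost without replicate 2, 3 or 4 (-0.26, -0.24 and -0.46, adjusted p = 0.177, 0.26 and 0.0607), with pseudocounts of 0.1 and 0.01 (adjusted p = 0.0618 and 0.0627) and with the reference held at its mean over the libraries (adjusted p = 0.123). Each difference carries the error of its reference. The SD of that reference was 0.15 for the endothelial median, 0.34 for the choroid plexus median and 0.14 for Slco1c1. For all 3 references limma pooled the variance over genes entirely, and p-values against them are too small.

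**Figure D4:**
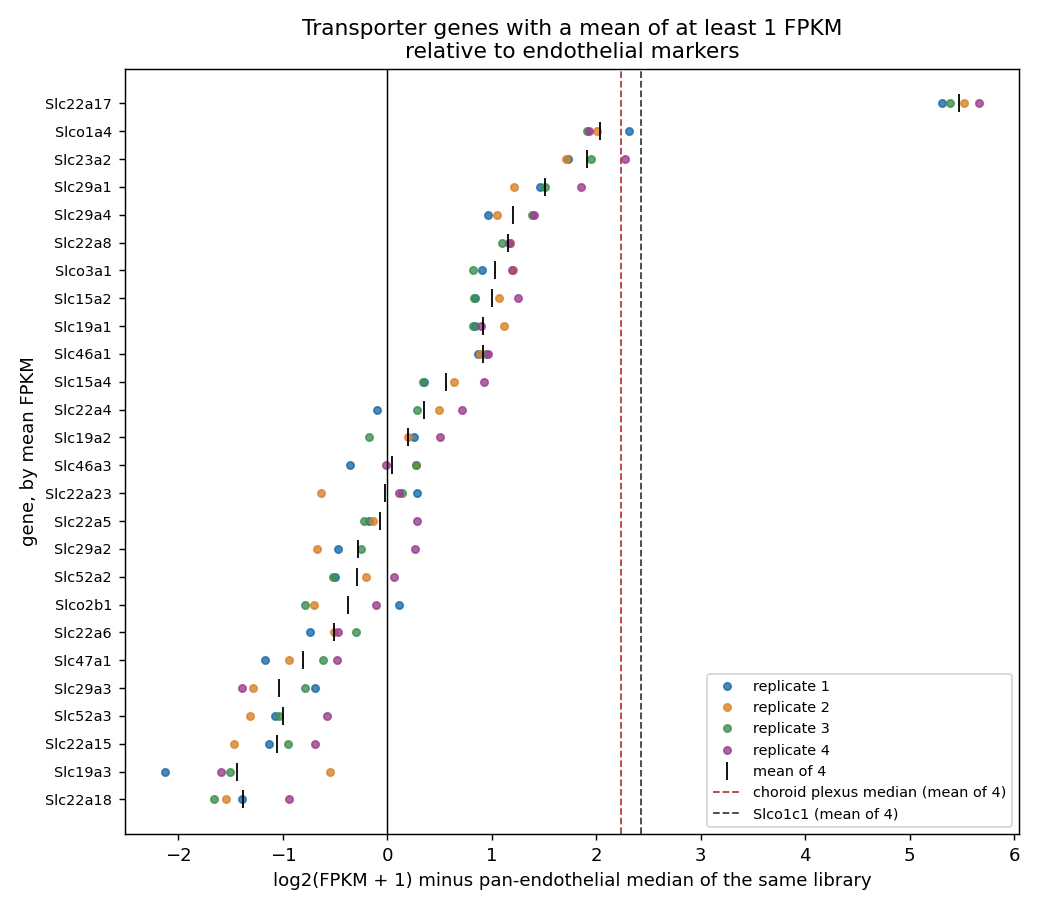
Distance of the 26 transporter genes averaging 1 FPKM or more from the pan-endothelial median of the same library (x axis, log2(FPKM + 1) difference), with 1 point per library, a bar for the mean of 4, and dashed lines for the choroid plexus median and Slco1c1. Slc22a17 alone lies to the right of both dashed lines, and Slco1a4 at 2.04 and Slc23a2 at 1.91 come nearest from the left.

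Against higher references nearly all carriers were lower. Of 50 members, 1 lay above the choroid plexus median, 47 lay below it and 2 could not be placed, compared with 8.98% of all genes above and 84.4% below (limma). The 2 were Slco1a4 at -0.20 ± 0.44 (SD) and Slc23a2 at -0.32 ± 0.25, and without replicate 2, whose choroid plexus median was the lowest, both passed as below it (-0.36 and -0.43, adjusted p = 0.00385 and 0.000673). Slc23a2 also passed as below with the reference held at its mean (adjusted p = 0.00608). Against Slco1c1, 1 member lay above and 49 lay below, compared with 9.1% and 87.6% of all genes. The member above was Slc22a17 in both cases, 3.23 ± 0.39 (SD) over the choroid plexus median and 3.04 ± 0.18 over Slco1c1.

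Grouped by the tissue in which a carrier is best known, carriers of brain endothelium, choroid plexus and brain cells had similar medians. Of 6 genes known from brain endothelium (Slco1a4, Slco2a1, Slco2b1, Slc22a8, Slc19a1 and Slc29a1), 5 lay above and 1 below 1 FPKM, and the list median was 8.25 to 10.9 FPKM over the libraries, with a mean of 9.88. Of 5 known from choroid plexus (Slco1a5, Slc22a8, Slc15a2, Slc46a1 and Slc23a2), 4 lay above and 1 could not be placed, with a median of 9.62 ± 0.508. Of 6 known from neurons and glia (Slc22a17, Slc29a4, Slc15a2, Slc23a2, Slco3a1 and Slc22a3), 5 lay above and 1 below, with a median of 10.6 ± 0.476. These lists share Slc22a8, Slc15a2 and Slc23a2. Of 9 known from liver, kidney or gut 1 lay above and 7 below 1 FPKM and 1 was at 0, the one above being Slc22a6, and of 5 testis genes 2 lay below and 3 were at 0. The median over all genes tested was 1.45 FPKM, and 47.7% of them lay above and 40.1% below 1 FPKM.

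In the order of levels, 26 members had a mean of at least 1 FPKM, and 19 of the 25 neighbouring pairs differed by no more than 1 SD of their within-library difference. The steps beyond 1 SD were those from Slc22a17 to Slco1a4, Slc23a2 to Slc29a1, Slc29a1 to Slc29a4, Slc46a1 to Slc15a4, Slc15a4 to Slc22a4 and Slc22a6 to Slc47a1. In the run from Slc29a4 through Slc22a8, Slco3a1, Slc15a2 and Slc19a1 to Slc46a1, at 11.2 to 8.97 FPKM, no neighbours differed beyond 1 SD, and members further apart in it were not compared here. Spread between libraries also differed among members. Slc22a17, Slc22a5 and Slc15a2 were among the steadiest, with SDs of 0.054, 0.095 and 0.090 in log2(FPKM + 1), at percentiles 4.13, 5.32 and 7.34 among genes of like level. Slco1a4, Slc22a23, Slc29a3 and Slco2b1 lay at percentiles 91.7, 89.2, 89.0 and 88.1.

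**Figure D5:**
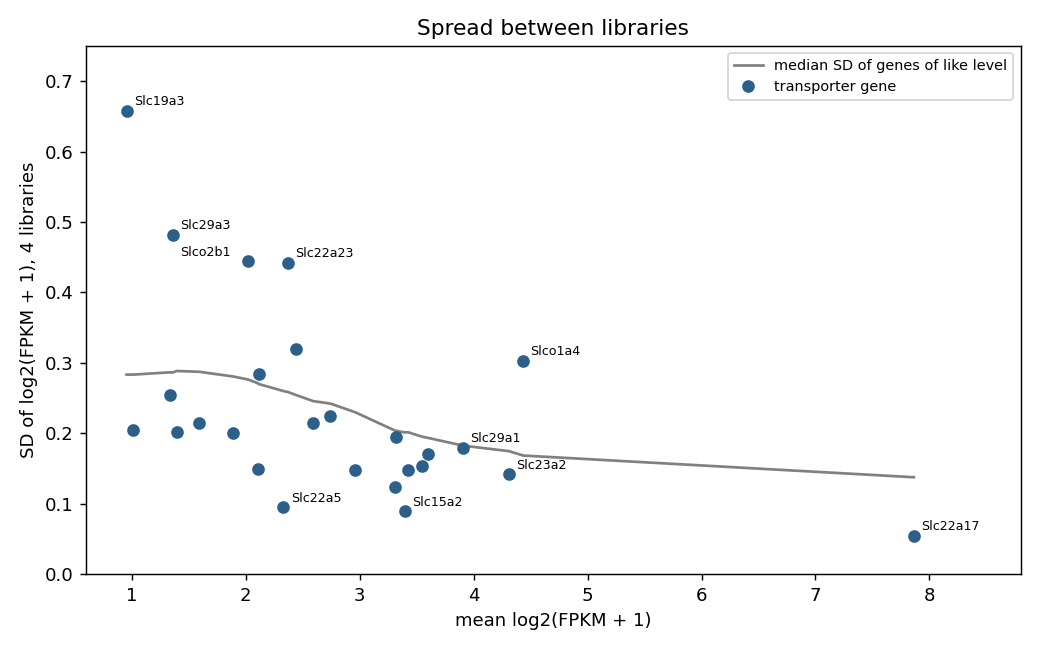
SD of log2(FPKM + 1) over the 4 libraries (y axis) against its mean (x axis) for the 26 transporter genes averaging 1 FPKM or more, with a line for the median SD of genes within 0.25 of the same level. Slc19a3 is the highest point at 0.66 and Slc22a17 the lowest at 0.054.

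Enzymes and receptors that act on the same substrates were measured beside the carriers. Of 10 folate genes 7 lay above 1 FPKM, none below and 3 were not placed, led by the folate receptor Folr1 of choroid plexus at 117 ± 10.6 FPKM (SD, n = 4) and the hydrolase Ggh at 33.6 ± 4.12. Riboflavin kinase, Rfk, lay above 1 FPKM at 59.7 ± 6.68. Of 8 nucleoside enzymes 6 lay above and 2 below, with adenosine kinase, Adk, at 72.0 ± 13.9 and Ak1 at 45.1 ± 3.14. All 4 carnitine genes lay above, with the mitochondrial carrier Slc25a20 at 13.6 ± 2.62 and Crat at 9.62 ± 1.08. Maob, a monoamine-degrading enzyme, lay above at 22.9 ± 2.24. Of 5 drug efflux partners of the anion carriers 4 lay above and 1 was not placed, with Abcg2 at 14.3 ± 2.29 and Abcc5 at 12.8 ± 1.15. All 3 carriers on the list of other vitamin transporters lay above, with Slc2a1 at 32.2 ± 2.92 and Slc2a3, both of which take up oxidised vitamin C besides glucose, at 16.4 ± 2.21. These counts are from limma with adjustment over all genes tested, of which 47.7% lay above 1 FPKM and 40.1% below it.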

How the data were processed

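The study measured 4 poly(A) RNA-seq libraries of 1 group. The authors deposited 1 table of FPKM, and the tools in the submitters' processing notes are StringTie 2.2.1, HISAT2 2.2.1, SAMtools and bcl2fastq 2.20, with build GRCm38. The sources used here do not give the annotation release, strand setting, filters or the handling of multiply matching reads. FPKM depends on the mapped total, so a few very high genes lower all others. Depth is unknown, and a value of exactly 0 may be a failed estimate. Replicate numbers came from the titles and columns from the library names, and 0 columns were left out.

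Values were analysed as log2(FPKM + 1), which understates differences of low genes. limma 3.58.1 in R 4.3.3, with a mean-variance trend, tested every gene above 0 in any library against 1 FPKM and, within library, against the median of 17 endothelial markers, the median of 12 choroid plexus markers and Slco1c1, with Benjamini-Hochberg adjustment over all genes. Only a fit without the trend and without a subtracted reference was tested on simulated data, so the comparisons within library were not covered. Positions, exon overlap and shared 50-base windows came from GENCODE M21 (GRCm38), which lacks the other Slc22a12 identifier, and promoters from RefSeq (GRCm38.p6). Named genes were the 4 highest of each family, all genes of the tissue lists, those nearest to 1 FPKM, the 3 with the largest spread, those at 0 in every library and the 2 highest of each partner list. Other members are named to account for them, which was decided after their values were seen, and a few genes that the rule names are not reported here. The members and lists were chosen with earlier results of these data known. Alternatives covered the pseudocount, filters, scaling, reference level, list summary, variance trend and each library left out. Figures were drawn with matplotlib 3.10.9.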

Additional observations from a re-analysis of the deposited data

Results flagged for a closer look

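Of the 50 members above 0, 9 had 1 library far from the other 3 by Dixon's 95% criterion for 4 values. For 6 of the 9 the other 3 libraries were at 0, where the criterion is always met. Among the other 44 members 3 met it, and chance marks about 1 in 20 groups of 4 normally distributed values. The share over all genes was not counted, so whether 3 of 44 is unusual here is not known. For Slc22a17 the highest library was replicate 2 at 245 FPKM, with the others at 227 to 228. Slc22a3 and Slc22a7 were highest in replicate 4, at 0.899 and 0.869 FPKM, with the others at 0.255 to 0.312 and 0.101 to 0.231. The 6 genes above 0 in 1 library alone follow. Slc15a5, Slc28a1, Slc28a2 and Slc15a1 were at 0.264, 0.136, 0.0441 and 0.0122 FPKM in replicate 3, and Slc22a16 and Slc22a14 at 0.182 and 0.0299 in replicate 2.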

How the results depend on the processing

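No paired analysis was possible because all 4 libraries form 1 group. With genes of a mean of at least 0.1 FPKM alone, which removes low members by construction, 10 members lay below 1 FPKM, and with all genes in the table, which adds those at 0, 33 did, against 20. Every other count of members stayed within 1.5 times of its reported value under all alternatives run. Leaving out 1 library gave 21 to 23 members above and 17 to 19 below 1 FPKM, 11 to 12 above and 31 to 32 below the endothelial median, 1 above and 47 to 49 below the choroid plexus median, and 1 above and 48 to 49 below Slco1c1. FPKM rescaled to a fixed sum raised genes of at least 1 FPKM by a median of 1.01 on the log2 scale and placed 26 members above and 15 below 1 FPKM, where Slc22a2, Slc22a3, Slc22a7, Slco4c1 and Slc23a3 were no longer called below it (adjusted p = 0.232 to 0.983). Holding the reference at its mean over the libraries, a choice made after seeing the data, gave 12 above and 32 below the endothelial median, where Slco2b1 lost its call and Slc52a2 passed as below (adjusted p = 0.0481).

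Single genes near a reference changed sign. Against 1 FPKM, the rescaling moved Slc19a3 to 0.54, Slco1a5 to 0.52 (adjusted p = 0.0454), Slco4a1 to 0.47, Slc22a21 to 0.39 and Slc28a3 to 0.29. With 0.5 FPKM as the level, Slc19a3 lay at 0.37, Slco1a5 at 0.33, Slco4a1 at 0.29, Slc22a21 at 0.23 and Slc28a3 at 0.17, and with 2 FPKM, Slc29a3 lay at -0.23, Slc52a3 at -0.19, Slc22a15 at -0.25 and Slc22a18 at -0.57. Leaving out 1 library at a time gave -0.36 (without replicate 2) to 0.14 (without replicate 1) for Slc19a3, -0.062 to 0.082 for Slc22a18 and -0.16 to 0.024 for Slco1a5. Against the endothelial markers, their mean in place of the median put Slc22a4 at -0.18, Slc19a2 at -0.34 and Slc46a3 at -0.49, and leaving out 1 library at a time gave -0.036 to 0.18 for Slc46a3 and -0.13 to 0.18 for Slc22a23. Where no construction shows it, the cause was not tested.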
